A study of Homo sapiens with 14 samples.

Results

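The genes described here encode the matrix metalloproteinases (MMPs), their relatives with thrombospondin motifs (ADAMTS proteases) and the tissue inhibitors of metalloproteinases (TIMPs). Members were taken by symbol, as every gene of the deposited table whose name was MMP, ADAMTS or TIMP followed by a number and at most 1 letter. This gave 42 of the 19410 genes in the table, of which 21 were MMP, 17 ADAMTS and 4 TIMP genes. RNA had been sequenced from MDA-MB-231, an established human triple-negative breast cancer line, and from 6 lines derived from it with CRISPR/Cas9, to learn which transcripts depend on SAP30, on the SIN3 scaffold proteins and on the histone methyltransferase MLL1. SAP30 was knocked out in SAP30-KO1 and SAP30-KO2, SIN3A and SIN3B were knocked out together in SIN3A+SIN3B-DKO1 and SIN3A+SIN3B-DKO2, and MLL1 was knocked out in MLL1-KO1 and MLL1-KO2. Parental cells carried none of these edits, the labels name no treatment, and each of the 7 groups had 2 libraries. Edited cells had also gone through delivery of a guide RNA vector and puromycin selection, which the study's methods do not describe for parental cells. In changes from Parental, these steps and the edits cannot be told apart. Per the study's methods a line is not 1 clone but a pool of clones, and knockouts had been checked at the protein level by immunoblot. The labels do not say whether the 2 libraries of a line came from separate cultures, and p-values therefore measure the spread between these libraries, which may be technical.

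MMPs are zinc-dependent proteases made as inactive pro-enzymes, most of which are secreted while the membrane-type MMPs stay on the cell surface. Together they cleave collagens, gelatin, laminins and many other proteins around the cell, and they are studied in breast cancer for their part in invasion. ADAMTS proteases cleave proteoglycans such as aggrecan and versican, process the ends of fibrillar procollagens or cut other matrix proteins. TIMPs bind the active site of MMPs, and TIMP3 also inhibits ADAMTS and ADAM proteases and is held in the extracellular matrix.

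Levels are given as TPM, a measure of transcript abundance that is scaled per gene length and adds up to 1000000 in every library, so that different genes can be set side by side. Between 18415036 and 23162682 reads stood behind a library. SAP30 RNA was at 78.9 and 82.8 TPM in Parental and between 2.75 and 4.96 in the SAP30-KO libraries, and RNA of MLL1, listed as MLL, was at 56.7 and 49.0 in Parental and between 15.8 and 27.7 in the MLL1-KO libraries. MLL was also lower in both SAP30-KO lines (log2 change -0.95 and -0.65). In the libraries labelled SIN3A+SIN3B-DKO, SIN3B RNA fell by 0.61 and 0.71 on the log2 scale whereas SIN3A RNA was not lower (0.47 and 0.32). An edit need not lower the RNA of its gene, so SIN3A RNA gives no check of that label. Of 4 mesenchymal markers, VIM was at 5741 TPM or more and AXL at 711 or more in every library. CD44 (267 to 611 TPM) was called higher in both MLL1-KO lines. CAV1 (356 to 659 TPM) was called lower in both SAP30-KO and both SIN3A+SIN3B-DKO lines. ESR1 and PGR stayed at or below 0.191 TPM and ERBB2 lay between 21.9 and 42.8. Summed levels of 7 fibroblast markers were 7.60 and 8.07 TPM in Parental and between 6.35 and 15.3 in the edited lines, those of 5 leukocyte markers 3.58 and 4.28 against 3.455 to 7.445, and those of 3 endothelial markers 1.64 and 1.89 against 1.67 to 4.03. Among these, COL1A1 and PECAM1 were called higher in both lines of SAP30-KO and of MLL1-KO, CD14 higher in SAP30-KO, LYZ higher in MLL1-KO and PDGFRB lower in SAP30-KO and SIN3A+SIN3B-DKO. Of the same 3 lists, DCN, CD3E and CDH5 did not exceed 0.0555, 0.0802 and 0.0337 TPM in any library, while COL1A1, LYZ and PECAM1 reached 13.2, 6.32 and 3.975. The summed level of 7 luminal epithelial markers was 1623 and 1671 TPM in Parental and between 591 and 1102 in the edited lines. Of the 6 tested, CDH1 reached the 1 TPM needed for testing in Parental alone (1.07 and 1.245, elsewhere at most 0.282). CDH1 therefore had to come out lower and is left aside. EPCAM and KRT19 had lower calls in all 6 lines. KRT8 had them in all lines but SIN3A+SIN3B-DKO1 and SIN3A+SIN3B-DKO2, and KRT18 in all but SIN3A+SIN3B-DKO2 and MLL1-KO1. GATA3 had no call in any line. Lower calls shared by both lines of a genotype covered 6.79% (SAP30-KO), 5.99% (SIN3A+SIN3B-DKO) and 11.4% (MLL1-KO) of all genes tested. The part of these markers in the results below was not tested.

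In these cells the families were led by a few genes. MMP14 alone held between 93.2% and 98.2% of the summed MMP level of each library, and ADAMTS1, ADAMTS12 and ADAMTS15 held between 64.2% and 90.65% of the ADAMTS level. The summed MMP level was 455 and 448 TPM in Parental, between 519 and 617 in the SAP30-KO and SIN3A+SIN3B-DKO libraries, 958 in both MLL1-KO1 libraries, and 1496 and 1499 in MLL1-KO2. The summed TIMP level went the other way, from 1601 and 1622 TPM in Parental to between 906 and 1178 in the edited lines, with no overlap. ADAMTS levels summed to 155.9 and 155.8 TPM in Parental and to between 65.7 and 117 in the edited lines.

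Of the 42 members, 24 had at least 1 TPM in at least 2 libraries and were tested, which were 11 MMP, 9 ADAMTS and 4 TIMP genes. The other 18 were not tested. Of these, MMP7, MMP23A and ADAMTS18 were listed at 0 in every library, and none of the remaining 15 exceeded 31 reads or 0.869 TPM in any library. MMP3, MMP8 and MMP9 passed through MLL1-KO2 alone, ADAMTS7 through the MLL1-KO lines alone and MMP2 through Parental alone, so these 5 had to differ between groups. They are given as values and left out of the counts below, which are over the other 19. Of these 19, MMP24 reached 1 TPM in the SAP30-KO and SIN3A+SIN3B-DKO lines alone, and ADAMTS17 in SIN3A+SIN3B-DKO1 and MLL1-KO2 alone. MMP16 reached it in Parental and MLL1-KO1 alone. The calls of MMP24, ADAMTS17 and MMP16 therefore also depend in part on the filter. A gene was called changed at an adjusted p under 0.05 in limma (Benjamini-Hochberg over all 13540 genes tested) and at least 1.5-fold on the scale of log2(TPM + 0.5).

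Against Parental, 6 of the 19 members were called lower and 2 higher in SAP30-KO1, where 7.86% and 7.8% of all genes tested were called. SAP30-KO2 also had 6 lower and 2 higher (8.12% and 7.44% of all genes). SIN3A+SIN3B-DKO1 had 6 lower and 5 higher (8.66% and 7.76%), and SIN3A+SIN3B-DKO2 had 8 lower and 4 higher (7.56% and 6.0%). MLL1-KO1 had 9 lower and 3 higher (16.3% and 6.89%), and MLL1-KO2 had 7 lower and 6 higher (14.9% and 10.2%). The median log2 change of the 19 lay between -0.16 and -0.12 in the SAP30-KO and SIN3A+SIN3B-DKO lines, at -0.55 in MLL1-KO1 and at 0.35 in MLL1-KO2, where the medians over all genes tested lay between -0.09 and 0.03.

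Calls shared by both lines of a genotype were 6 lower and 2 higher for SAP30-KO (6.79% and 6.17% of all genes tested), 5 lower and 3 higher for SIN3A+SIN3B-DKO (5.99% and 4.7%), and 6 lower and 3 higher for MLL1-KO (11.4% and 5.0%). In all 6 lines 2 members, TIMP3 and ADAMTS15, were called lower, as were 2.67% of all genes, and 1 member, ADAMTS9, was called higher, as were 0.945% of all genes. These comparisons share the same 2 Parental libraries. TIMP1 and TIMP2 were called in none of the 6 lines.

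**Figure D1:**
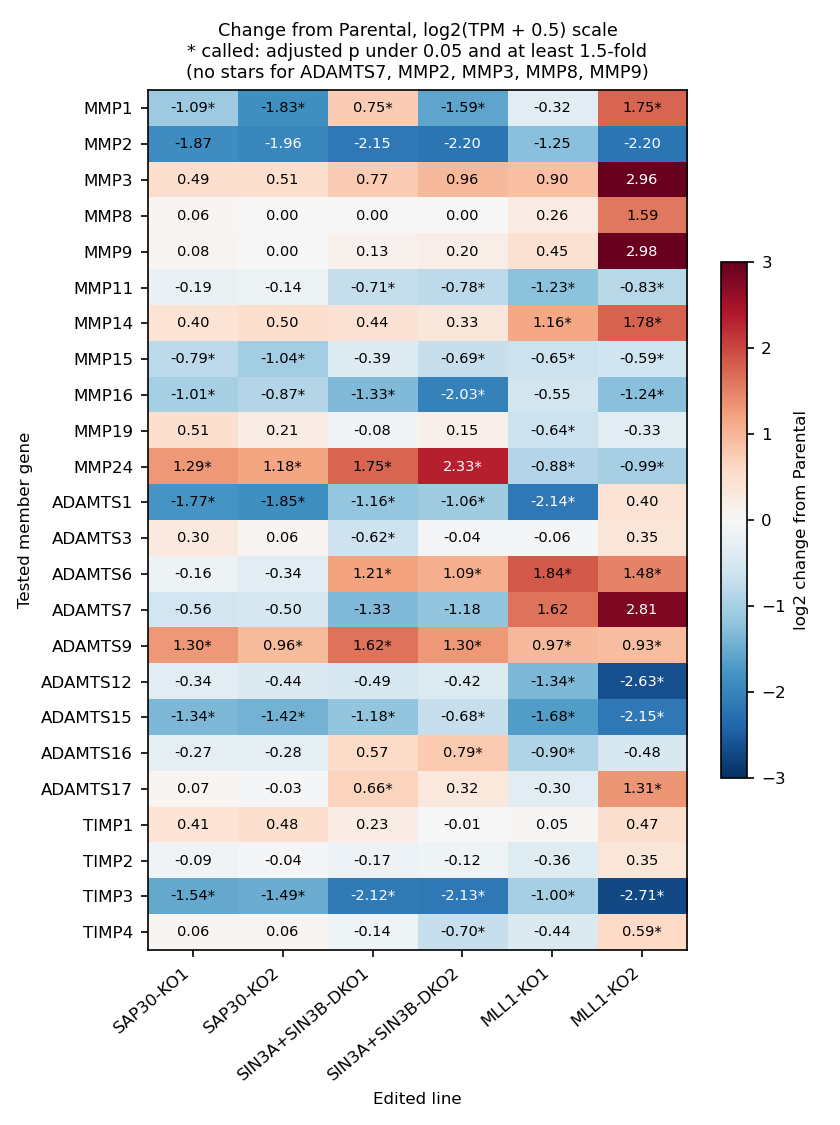
Log2 change from Parental of the 24 tested members (rows) in the 6 edited lines (columns), on the scale of log2(TPM + 0.5), blue for lower and red for higher, with a star where 1 of the 19 counted members was called and no stars for the 5 given as values. TIMP3 and ADAMTS15 are starred and blue in all 6 columns, ADAMTS9 is starred and red in all 6, and MMP24 changes from red in the first 4 columns to blue in the MLL1-KO columns.

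Promoter sequence was at hand for 22 of the 42 members, 13 of them tested (RefSeq, build GRCh38.p14). Shown are the 250 bases before the start of TIMP3, lower in all 6 lines, of MMP24, which moved in opposite directions between genotypes, of MMP14, the most abundant protease, and of MMP10, which stayed near 0 throughout. They are written 5′ to 3′ on the strand of the gene. Capitals mark matches to a GC box (GGGCGG, or CCGCCC on the other strand), a TATA box (TATAAA, or TTTATA on the other strand) or an AP-1 motif (TGANTCA, its own reverse complement):
TIMP3 (chr22:32801455-32801704, plus strand): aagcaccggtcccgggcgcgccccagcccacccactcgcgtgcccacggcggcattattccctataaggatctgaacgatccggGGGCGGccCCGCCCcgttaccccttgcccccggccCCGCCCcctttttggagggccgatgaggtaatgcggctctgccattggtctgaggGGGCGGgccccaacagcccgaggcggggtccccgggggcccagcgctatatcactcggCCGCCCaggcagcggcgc
MMP24 (chr20:35226440-35226689, plus strand): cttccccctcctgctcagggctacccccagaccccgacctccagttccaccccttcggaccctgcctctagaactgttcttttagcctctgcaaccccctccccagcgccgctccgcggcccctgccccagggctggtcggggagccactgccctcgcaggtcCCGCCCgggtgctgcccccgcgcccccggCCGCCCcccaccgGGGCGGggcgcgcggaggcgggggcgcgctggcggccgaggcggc
MMP14 (chr14:22836335-22836584, plus strand): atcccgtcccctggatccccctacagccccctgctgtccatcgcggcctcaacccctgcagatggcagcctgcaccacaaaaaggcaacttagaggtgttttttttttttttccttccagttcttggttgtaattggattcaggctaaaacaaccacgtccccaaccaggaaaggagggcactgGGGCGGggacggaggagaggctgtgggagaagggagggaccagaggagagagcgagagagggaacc
MMP10 (chr11:102780629-102780878, minus strand): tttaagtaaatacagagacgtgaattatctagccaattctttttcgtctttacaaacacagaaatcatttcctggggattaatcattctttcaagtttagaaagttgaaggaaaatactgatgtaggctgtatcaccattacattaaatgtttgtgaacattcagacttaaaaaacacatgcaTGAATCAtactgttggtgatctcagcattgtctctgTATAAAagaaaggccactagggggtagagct

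The TIMP3 window held 26 CG pairs and 5 GC boxes, that of MMP24 held 25 CG pairs and 3 GC boxes, and that of MMP14 held 7 CG pairs and 1 GC box. In contrast, the MMP10 window held 2 CG pairs, no GC box, 1 TATA box and 1 AP-1 motif. Over 35116 promoters of the same length the median was 11 CG pairs, 42.6% held a GC box, 10.7% a TATA box and 6.57% an AP-1 motif. Of the 22 members, 17 held a GC box, 4 a TATA box (MMP7, MMP8, MMP10 and MMP21) and 3 an AP-1 motif (MMP7, MMP10 and ADAMTS12). The 4 members with a TATA box were at 1.015 TPM or less in every library. So were ADAMTS2, ADAMTS13, ADAMTS14, ADAMTS18, ADAMTS20 and MMP23B, whose windows held none. MMP1, MMP2, MMP3 and MMP9 had no entry. Such matches describe letters in the window only.

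Of the inhibitors, TIMP3 was the member that changed most in level. TIMP3 (chr22:33197691-33259028, GRCh37) was at 819 and 826 TPM (Parental), 282 and 283 (SAP30-KO1), 293 and 291 (SAP30-KO2), 189.9 and 189 (SIN3A+SIN3B-DKO1), 181 and 193 (SIN3A+SIN3B-DKO2), 393 and 427 (MLL1-KO1), and 127 and 124 (MLL1-KO2). All 12 edited libraries lay far below both Parental libraries, and MLL1-KO1 kept the highest level among them. The log2 changes were -1.54 (SAP30-KO1), -1.49 (SAP30-KO2), -2.12 (SIN3A+SIN3B-DKO1), -2.13 (SIN3A+SIN3B-DKO2), -1.004 (MLL1-KO1) and -2.71 (MLL1-KO2) (SE 0.04), with adjusted p between 3.12e-12 and 5.41e-09. The mean in MLL1-KO2 was 0.152 of that in Parental, and MLL1-KO2 also lay below MLL1-KO1 in the direct test (log2 difference -1.705, adjusted p = 6.65e-10). In bulk RNA, fewer cells with a transcript and less of it per cell cannot be told apart.

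TIMP2, which besides its inhibitor role takes part in the activation of pro-MMP2 by MMP14, was the steadier partner. TIMP2 was at 541.5 and 538 TPM (Parental), 511 and 501 (SAP30-KO1), 523 and 526 (SAP30-KO2), 474 and 486 (SIN3A+SIN3B-DKO1), 484 and 511 (SIN3A+SIN3B-DKO2), 414 and 429 (MLL1-KO1), and 679.5 and 702 (MLL1-KO2). The 2 MLL1-KO lines lay on opposite sides of Parental and no line reached 1.5-fold, with log2 changes of -0.36 and 0.355. Between them the difference was 0.71 (adjusted p = 7.31e-08) and was called, although with the median of the neighbouring genes subtracted it was 0.43 and was not.

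TIMP1, a soluble inhibitor of most MMPs, was at 227 and 244 TPM (Parental), 311 and 315 (SAP30-KO1), 332 and 325 (SAP30-KO2), 277.5 and 272.5 (SIN3A+SIN3B-DKO1), 232 and 234 (SIN3A+SIN3B-DKO2), 243 and 243 (MLL1-KO1), and 321 and 330.5 (MLL1-KO2). Both SAP30-KO lines, SIN3A+SIN3B-DKO1 and MLL1-KO2 lay above both Parental libraries, by log2 changes of 0.225 to 0.48 that stayed under 1.5-fold. TIMP4 was at 13.5 and 13.99 TPM (Parental), 15.15 and 13.6 (SAP30-KO1), 15.2 and 13.7 (SAP30-KO2), 13.55 and 11.4 (SIN3A+SIN3B-DKO1), 8.22 and 8.32 (SIN3A+SIN3B-DKO2), 10.5 and 9.53 (MLL1-KO1), and 19.9 and 22.1 (MLL1-KO2). It was called lower in SIN3A+SIN3B-DKO2 (-0.70, adjusted p = 0.000138) and just higher in MLL1-KO2 (0.59, adjusted p = 0.000284), and the latter call was lost without Parental replicate 1 (0.57), without MLL1-KO2 replicate 2 (0.52) or with its neighbours subtracted (0.25).

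With these levels the order of the inhibitors changed. TIMP3 led in both Parental libraries, ahead of TIMP2, TIMP1 and TIMP4, and held 51.1% and 50.9% of the summed TIMP level. TIMP2 led in all 12 edited libraries, where TIMP3 held between 10.5% and 38.5%. TIMP3 came after TIMP1 in all of them but the MLL1-KO1 libraries. For each TIMP3 transcript there were 0.519 and 0.505 MMP14 transcripts in Parental, between 1.94 and 3.1 in the SAP30-KO, SIN3A+SIN3B-DKO and MLL1-KO1 libraries, and 11.4 and 11.7 in MLL1-KO2.

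**Figure D2:**
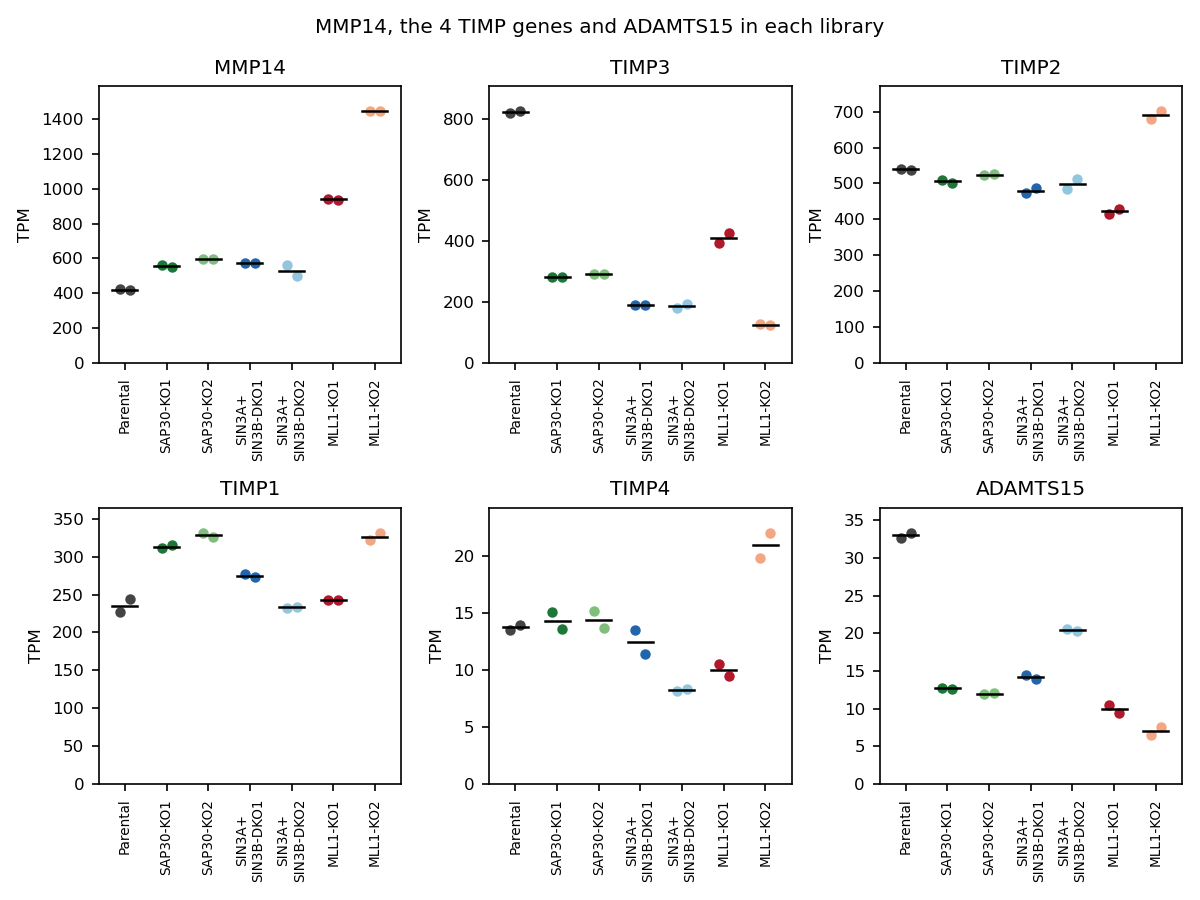
TPM (linear axis from 0) of MMP14, the 4 TIMP genes and ADAMTS15 in the 7 groups, with 1 point for each library and a bar at the mean of 2 libraries. TIMP3 falls from 819 and 826 TPM in Parental to 427 or less, while MMP14 rises to 1447 and 1448 in MLL1-KO2 and TIMP1 and TIMP2 stay within 1.5-fold of Parental.

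Among the membrane-type MMPs, MMP14 (MT1-MMP, a collagenase of the cell surface that activates pro-MMP2; chr14:23305769-23318250, GRCh37) was at 425 and 417 TPM (Parental), 563 and 548.5 (SAP30-KO1), 595 and 598 (SAP30-KO2), 572 and 573 (SIN3A+SIN3B-DKO1), 561 and 499.6 (SIN3A+SIN3B-DKO2), 940.3 and 939 (MLL1-KO1), and 1447 and 1448 (MLL1-KO2). Every edited library was above both Parental libraries, and the MLL1-KO libraries were above all others. It was called higher in MLL1-KO1 (1.16, SE 0.043, adjusted p = 2.82e-09) and MLL1-KO2 (1.78, adjusted p = 7.89e-11). In the other 4 lines the log2 changes of 0.33 to 0.50 were under 1.5-fold, and the 51 tested genes centred on MMP14 had median changes of 0.35 to 0.40 in the same lines.

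MMP24 (MT5-MMP, best known from nervous tissue; chr20:33814493-33864801) was at 0.963 and 0.758 TPM (Parental), 2.69 and 2.95 (SAP30-KO1), 2.90 and 2.28 (SAP30-KO2), 4.32 and 3.79 (SIN3A+SIN3B-DKO1), 6.85 and 5.795 (SIN3A+SIN3B-DKO2), 0.311 and 0.172 (MLL1-KO1), and 0.204 and 0.161 (MLL1-KO2). The SAP30-KO and SIN3A+SIN3B-DKO libraries lay above both Parental libraries and the MLL1-KO libraries below them, with no overlap between the 3 sets. It was called higher in both SAP30-KO lines (1.29 and 1.18, SE 0.163) and in both SIN3A+SIN3B-DKO lines (1.745 and 2.33). In MLL1-KO1 and MLL1-KO2 it was called lower (-0.88 and -0.99), calls that quantile normalization ended (-0.37 and -0.50). The difference between the MLL1-KO and SIN3A+SIN3B-DKO means was -2.97 (adjusted p = 1.87e-09).

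MMP16 (MT3-MMP) was at 1.87 and 1.69 TPM (Parental), 0.614 and 0.651 (SAP30-KO1), 0.699 and 0.790 (SAP30-KO2), 0.297 and 0.526 (SIN3A+SIN3B-DKO1), 0.0563 and 0.05745 (SIN3A+SIN3B-DKO2), 0.949 and 1.16 (MLL1-KO1), and 0.4195 and 0.505 (MLL1-KO2). Parental held the highest values, and SIN3A+SIN3B-DKO2 the lowest. Its log2 changes were -1.01 (SAP30-KO1), -0.87 (SAP30-KO2), -1.33 (SIN3A+SIN3B-DKO1), -2.03 (SIN3A+SIN3B-DKO2), -0.55 (MLL1-KO1) and -1.24 (MLL1-KO2) (SE 0.178), called in every line but MLL1-KO1. MMP15 (MT2-MMP) was at 6.30 and 6.24 TPM (Parental), 3.665 and 3.17 (SAP30-KO1), 2.99 and 2.61 (SAP30-KO2), 4.72 and 4.59 (SIN3A+SIN3B-DKO1), 4.12 and 3.34 (SIN3A+SIN3B-DKO2), 3.70 and 3.93 (MLL1-KO1), and 3.96 and 4.02 (MLL1-KO2). Every edited library was lower than both Parental libraries, and the change was called in every line but SIN3A+SIN3B-DKO1, with log2 changes of -1.04 to -0.59 in those called. The MMP15 call was lost in SIN3A+SIN3B-DKO2 without its replicate 2 (-0.55) and in MLL1-KO2 without its replicate 1 (-0.58). With the neighbouring genes subtracted, MMP15 was called in SAP30-KO2 alone (-0.73) and MMP16 lost its call in SAP30-KO2 (-0.58), the median change of the neighbours being between -0.58 and -0.29 for MMP15 and between -0.57 and -0.28 for MMP16. MMP17 and MMP25, also anchored to the membrane, did not exceed 3 reads in any library.

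MMP1, the interstitial collagenase (chr11:102660132-102668891, GRCh37), had no common direction. MMP1 was at 8.80 and 9.03 TPM (Parental), 3.99 and 3.83 (SAP30-KO1), 1.92 and 2.38 (SAP30-KO2), 14.6 and 16.1 (SIN3A+SIN3B-DKO1), 2.49 and 2.775 (SIN3A+SIN3B-DKO2), 6.39 and 7.82 (MLL1-KO1), and 30.03 and 32.1 (MLL1-KO2). Both SAP30-KO lines and SIN3A+SIN3B-DKO2 lay below Parental, MLL1-KO1 just below it, and SIN3A+SIN3B-DKO1 and MLL1-KO2 above it. It was called in 5 lines, at -1.095 and -1.835 in SAP30-KO1 and SAP30-KO2, 0.75 in SIN3A+SIN3B-DKO1, -1.59 in SIN3A+SIN3B-DKO2 and 1.745 in MLL1-KO2 (SE 0.114). SIN3A+SIN3B-DKO2 differed from SIN3A+SIN3B-DKO1 by -2.34 (adjusted p = 7.36e-07), and MLL1-KO2 from MLL1-KO1 by 2.06 (adjusted p = 2.75e-07). Subtracting the median of the neighbouring genes ended the call in SAP30-KO1 (-0.35) and turned MLL1-KO1 from -0.315, not called, to 0.60, called.

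The other collagenases were scarce. MMP13 had 3 and 0 reads (Parental), 3 and 2 (SAP30-KO1), 1 and 0 (SAP30-KO2), 10 and 7 (SIN3A+SIN3B-DKO1), 10 and 6 (SIN3A+SIN3B-DKO2), 3 and 0 (MLL1-KO1), and 5 and 3 (MLL1-KO2). Its reads in the SIN3A+SIN3B-DKO lines were above those of the other groups, but in TPM (0.268 to 0.437) these lines overlapped MLL1-KO2 (0.272 and 0.154). The ratio to Parental was 4.85 (95% counting interval 1.4 to 25.8) in SIN3A+SIN3B-DKO1 and 4.54 (1.3 to 24.3) in SIN3A+SIN3B-DKO2. In MLL1-KO2 it was 2.71 (0.651 to 15.9). Intervals of this kind cover counting error only. MMP8 had 21 and 22 reads in MLL1-KO2, 4 and 1 in MLL1-KO1, 1 in a SAP30-KO1 library and 0 elsewhere. Against a floor of 3 reads per library, MMP8 in MLL1-KO2 was at least 7.29-fold higher than in Parental.

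The gelatinases MMP2 and MMP9, which degrade denatured collagen and basement membrane collagen, were both low. As MMP2 passed the filter through Parental alone and MMP9 through MLL1-KO2 alone, their directions are a description only. MMP2 (chr16:55423612-55540603, GRCh37) had 45 and 53 reads (Parental), 1 and 7 (SAP30-KO1), 5 and 1 (SAP30-KO2), 1 and 0 (SIN3A+SIN3B-DKO1), 0 and 0 (SIN3A+SIN3B-DKO2), 16 and 13 (MLL1-KO1), and 0 and 0 (MLL1-KO2), which in Parental was 1.63 and 1.97 TPM. No edited library reached a Parental value, and MLL1-KO1 had the highest among them. On the log2 scale MMP2 changed by -1.87 (SAP30-KO1), -1.96 (SAP30-KO2), -2.15 (SIN3A+SIN3B-DKO1), -2.20 (SIN3A+SIN3B-DKO2), -1.25 (MLL1-KO1) and -2.20 (MLL1-KO2) (SE 0.223), sizes that depend on the pseudocount. Where a line was at 0, Parental was at least 19.2-fold higher than SIN3A+SIN3B-DKO2 and at least 16.1-fold higher than MLL1-KO2, and the ratio to SIN3A+SIN3B-DKO1, with 1 read, was 115 (20.1 to 4571). The tested genes around MMP2 had median changes of -0.55 to -0.40.

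MMP9 had 0 and 0 reads (Parental), 0 and 1 (SAP30-KO1), 0 and 0 (SAP30-KO2), 2 and 0 (SIN3A+SIN3B-DKO1), 0 and 3 (SIN3A+SIN3B-DKO2), 3 and 4 (MLL1-KO1), and 60 and 52 (MLL1-KO2). MLL1-KO2 stood apart from all other libraries, at 3.79 and 3.1 TPM, and the rest did not exceed 4 reads. Its level in MLL1-KO2 was at least 19.0-fold higher than in Parental (2.975 on the log2 scale).

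Of the stromelysins, which cleave proteoglycans and activate other MMPs, MMP3 had 1 and 0 reads (Parental), 4 and 3 (SAP30-KO1), 3 and 5 (SAP30-KO2), 9 and 4 (SIN3A+SIN3B-DKO1), 6 and 11 (SIN3A+SIN3B-DKO2), 9 and 6 (MLL1-KO1), and 43 and 51 (MLL1-KO2). Again MLL1-KO2 was highest, at 3.47 and 3.88 TPM, and Parental lowest, with 1 read in all. The ratio of MLL1-KO2 to Parental was 95.6 (95% counting interval 16.8 to 3816), and those of the other lines lay between 6.65 and 14.5, with lower bounds under 1 in both SAP30-KO lines. On the log2 scale MMP3 changed by 0.495 (SAP30-KO1), 0.51 (SAP30-KO2), 0.765 (SIN3A+SIN3B-DKO1), 0.96 (SIN3A+SIN3B-DKO2), 0.90 (MLL1-KO1) and 2.96 (MLL1-KO2). MMP10 had 0 and 3 reads (Parental), 3 and 2 (SAP30-KO1), 1 and 3 (SAP30-KO2), 3 and 3 (SIN3A+SIN3B-DKO1), 1 and 2 (SIN3A+SIN3B-DKO2), 2 and 5 (MLL1-KO1), and 2 and 0 (MLL1-KO2), and no group stood apart.

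MMP11 (stromelysin-3, which is activated inside the cell by furin; chr22:24110413-24126503) was at 6.705 and 6.82 TPM (Parental), 6.52 and 5.25 (SAP30-KO1), 5.56 and 6.64 (SAP30-KO2), 4.58 and 3.39 (SIN3A+SIN3B-DKO1), 4.52 and 3.06 (SIN3A+SIN3B-DKO2), 2.44 and 2.75 (MLL1-KO1), and 3.53 and 3.63 (MLL1-KO2). The SIN3A+SIN3B-DKO and MLL1-KO libraries lay below both Parental libraries, and so did the SAP30-KO libraries by less. It was called lower in the SIN3A+SIN3B-DKO lines (-0.71 and -0.78, SE 0.18) and in MLL1-KO1 and MLL1-KO2 (-1.23 and -0.83). Without replicate 2 of the line the calls in SIN3A+SIN3B-DKO1 (-0.52) and SIN3A+SIN3B-DKO2 (-0.53) were lost.

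Of the remaining MMPs, MMP19 lay between 1.4 and 4.55 TPM and was called lower in MLL1-KO1 alone (-0.64), a call lost under quantile normalization (-0.32) or without MLL1-KO1 replicate 2 (-0.49). It overlaps TMEM198B on the other strand, at 3.61 to 7.72 TPM, and the strand setting of the counting is not given in the sources used here, so the reads of such pairs cannot be told apart. MMP28 (epilysin), which like MMP8, ADAMTS5, ADAMTS8 and ADAMTS14 was singled out after its values were seen, had 14 and 12 reads in Parental, 1 in a SAP30-KO1 library and 0 in the other 11 edited libraries, at least 4.25-fold to 5.08-fold lower in the 5 lines at 0. MMP12 had 1 read over all libraries, MMP21 at most 3 in a library, and MMP23B, a near-identical copy of MMP23A, 1 read in each of 3 libraries.

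ADAMTS1, ADAMTS4, ADAMTS5, ADAMTS8, ADAMTS9, ADAMTS15 and ADAMTS20 are proteases of aggrecan, versican or both, and 3 of these 7 were tested. ADAMTS1 (chr21:28208074-28217728, GRCh37) was at 52.5 and 52.3 TPM (Parental), 15.9 and 14.1 (SAP30-KO1), 15.05 and 13.4 (SAP30-KO2), 21.9 and 24.4 (SIN3A+SIN3B-DKO1), 26.6 and 23.1 (SIN3A+SIN3B-DKO2), 11.3 and 11.7 (MLL1-KO1), and 68.6 and 69.9 (MLL1-KO2). In 5 lines the libraries lay well below Parental and in MLL1-KO2 alone above it. Against Parental the log2 changes came to -1.77 (SAP30-KO1), -1.85 (SAP30-KO2), -1.16 (SIN3A+SIN3B-DKO1), -1.065 (SIN3A+SIN3B-DKO2), -2.14 (MLL1-KO1) and 0.40 (MLL1-KO2) (SE 0.084), called lower in the first 5. MLL1-KO2 and MLL1-KO1 differed by 2.54 (adjusted p = 7.87e-09). Its neighbour ADAMTS5 (chr21:28290241-28339407) had 11 and 8 reads in Parental, 2 in SAP30-KO1 and at most 1 in each of the other lines, MLL1-KO2 included.

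ADAMTS15 (chr11:130318540-130346540, GRCh37) was at 32.7 and 33.4 TPM (Parental), 12.8 and 12.6 (SAP30-KO1), 11.9 and 12.1 (SAP30-KO2), 14.5 and 14.01 (SIN3A+SIN3B-DKO1), 20.6 and 20.3 (SIN3A+SIN3B-DKO2), 10.5 and 9.50 (MLL1-KO1), and 6.555 and 7.58 (MLL1-KO2). Every edited library lay below both Parental libraries, and SIN3A+SIN3B-DKO2 was the nearest to them. On the log2 scale it changed by -1.34 (SAP30-KO1), -1.42 (SAP30-KO2), -1.18 (SIN3A+SIN3B-DKO1), -0.68 (SIN3A+SIN3B-DKO2), -1.68 (MLL1-KO1) and -2.15 (MLL1-KO2) (SE 0.073), called in all 6 lines with adjusted p between 1.1e-09 and 2.28e-05. The tested genes around it had median changes of -0.75 and -0.76 in the SAP30-KO lines and -0.88 in MLL1-KO1, and with these subtracted the call was lost in SIN3A+SIN3B-DKO2 (-0.46). Next to it ADAMTS8 (chr11:130274818-130298504) had 2 and 5 reads in Parental and 0 in all 12 edited libraries, where 3 reads would have been 0.0983 to 0.118 TPM.

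ADAMTS9, a broadly expressed versican protease (chr3:64501330-64673676, GRCh37), was the member called higher in all 6 lines. ADAMTS9 was at 2.15 and 2.11 TPM (Parental), 6.35 and 5.64 (SAP30-KO1), 4.58 and 4.62 (SAP30-KO2), 7.36 and 7.78 (SIN3A+SIN3B-DKO1), 5.96 and 5.99 (SIN3A+SIN3B-DKO2), 4.19 and 5.18 (MLL1-KO1), and 4.44 and 4.59 (MLL1-KO2). No edited library overlapped Parental, and the lowest of them, a MLL1-KO1 library, was at 4.19 TPM. The log2 changes were 1.30 (SAP30-KO1), 0.96 (SAP30-KO2), 1.62 (SIN3A+SIN3B-DKO1), 1.30 (SIN3A+SIN3B-DKO2), 0.97 (MLL1-KO1) and 0.93 (MLL1-KO2) (SE 0.103), with adjusted p between 4.68e-07 and 2.03e-05. ADAMTS9-AS2, which overlaps it on the other strand, lay between 0.0625 and 0.603 TPM. ADAMTS4 did not exceed 7 reads and ADAMTS20 had 1 read in all.

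ADAMTS7 and ADAMTS12 form a pair of related proteases that cleave cartilage oligomeric matrix protein. They lay on opposite sides of Parental in the MLL1-KO lines, through which alone ADAMTS7 passed the filter. ADAMTS7 (chr15:79051548-79103806, GRCh37) was at 0.937 and 0.910 TPM (Parental), 0.557 and 0.376 (SAP30-KO1), 0.458 and 0.556 (SAP30-KO2), 0.0858 and 0.0450 (SIN3A+SIN3B-DKO1), 0.1515 and 0.1105 (SIN3A+SIN3B-DKO2), 3.62 and 4.15 (MLL1-KO1), and 9.33 and 9.585 (MLL1-KO2). The MLL1-KO libraries lay above Parental, and the SAP30-KO and SIN3A+SIN3B-DKO libraries below it, with the SIN3A+SIN3B-DKO libraries lowest. Log2 changes of ADAMTS7 were -0.565 (SAP30-KO1), -0.50 (SAP30-KO2), -1.33 (SIN3A+SIN3B-DKO1), -1.175 (SIN3A+SIN3B-DKO2), 1.62 (MLL1-KO1) and 2.81 (MLL1-KO2) (SE 0.153). On the TPM scale MLL1-KO2 was at 10.2 times Parental and SIN3A+SIN3B-DKO1 at 0.0708 of it, since the pseudocount compresses changes of low genes. MORF4L1, which overlaps ADAMTS7 on the other strand, lay between 186 and 225 TPM in all libraries.

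ADAMTS12 (chr5:33523640-33892124, GRCh37), the most abundant ADAMTS gene of Parental, was at 55.98 and 55.6 TPM (Parental), 46.1 and 41.98 (SAP30-KO1), 41.5 and 40.75 (SAP30-KO2), 40.8 and 38.1 (SIN3A+SIN3B-DKO1), 41.8 and 41.3 (SIN3A+SIN3B-DKO2), 20.6 and 22.95 (MLL1-KO1), and 8.64 and 8.54 (MLL1-KO2). Every edited library was below Parental, those of MLL1-KO2 most. It was called lower in MLL1-KO1 (-1.34, SE 0.061) and MLL1-KO2 (-2.63, adjusted p = 6.67e-11), and the other 4 lines had log2 changes of -0.495 to -0.34, under 1.5-fold. The mean of the MLL1-KO lines was below that of the SAP30-KO lines (-1.60) on the log2 scale.

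ADAMTS6 (chr5:64444565-64777747), whose substrates are less well known, was at 2.62 and 2.16 TPM (Parental), 2.41 and 1.79 (SAP30-KO1), 1.61 and 1.965 (SAP30-KO2), 6.19 and 6.115 (SIN3A+SIN3B-DKO1), 6.03 and 5.29 (SIN3A+SIN3B-DKO2), 10.2 and 9.44 (MLL1-KO1), and 8.61 and 6.61 (MLL1-KO2). The SIN3A+SIN3B-DKO and MLL1-KO libraries lay above both Parental libraries whereas SAP30-KO1 overlapped them and SAP30-KO2 lay just below. It was called higher in both SIN3A+SIN3B-DKO lines (1.21 and 1.09, SE 0.157) and both MLL1-KO lines (1.84 and 1.48).

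The procollagen N-propeptidases were low. ADAMTS3 lay between 0.912 and 2.58 TPM and was called in SIN3A+SIN3B-DKO1 alone (-0.62). That call was lost without Parental replicate 2 (-0.45), without SIN3A+SIN3B-DKO1 replicate 2 (-0.56) or with the neighbouring genes subtracted (-0.42). ADAMTS14 had 31 and 28 reads in MLL1-KO2, more than in any other library, and ADAMTS2 was listed at 0.059 and 0.0606 TPM in Parental and at 0 in all 12 edited libraries. ADAMTS16 lay between 3.01 and 11.7 TPM and was called lower in MLL1-KO1 (-0.90) and higher in SIN3A+SIN3B-DKO2 (0.79). ADAMTS17, at 0.349 to 2.31 TPM, was called higher in MLL1-KO2 (1.31) and SIN3A+SIN3B-DKO1 (0.66), the latter lost without either Parental replicate 1 (0.53) or SIN3A+SIN3B-DKO1 replicate 1 (0.49). ADAMTS13, the protease of von Willebrand factor, had at most 9 reads.

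**Figure D3:**
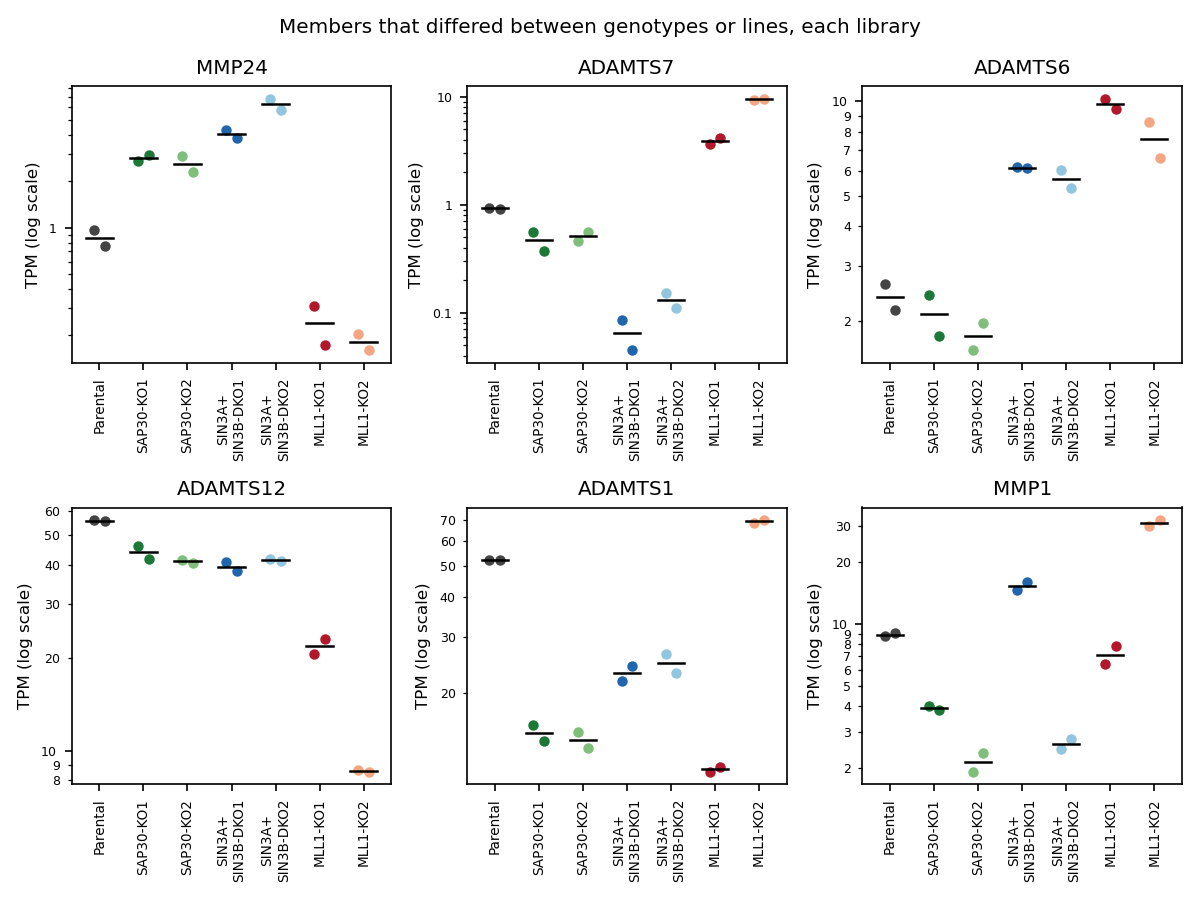
TPM (log axis) of 6 members that differed between genotypes or between lines of a genotype, with 1 point for each library and a bar at the mean of 2 libraries. MMP24 is highest in the SIN3A+SIN3B-DKO lines and lowest in the MLL1-KO lines, ADAMTS7 shows the reverse order, and ADAMTS1 and MMP1 separate MLL1-KO2 from MLL1-KO1.

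The lines of a genotype were then compared with each other. Between SAP30-KO2 and SAP30-KO1, 1 of the 19 members was called, MMP1 (-0.74, adjusted p = 0.0296), where 0.148% of all genes tested were, and this call was lost without any 1 of the 4 libraries compared. Between the SIN3A+SIN3B-DKO lines 3 were called, MMP1, MMP16 (-0.70) and ADAMTS3 (0.59), with 2.23% of all genes, and without SIN3A+SIN3B-DKO2 replicate 2 only 1 was. MLL1-KO2 differed from MLL1-KO1 in 9 of the 19 members, where 10.4% of all genes were called. MMP1, MMP14, ADAMTS1, ADAMTS17, TIMP2 and TIMP4 were the 6 higher in MLL1-KO2, and MMP16, ADAMTS12 and TIMP3 the 3 lower. The MMP16 call was lost without MLL1-KO1 replicate 2 (-0.59) or MLL1-KO2 replicate 1 (-0.62).

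Genotypes were compared as means of their 2 lines, in which the Parental libraries cancel. Between MLL1-KO and SAP30-KO, 8 of the 19 members were called (19.8% of all genes tested), 4 higher and 4 lower in MLL1-KO, led by MMP1 (2.18) and MMP24 (-2.17). Between MLL1-KO and SIN3A+SIN3B-DKO, 7 were called (19.9% of all genes), 3 higher and 4 lower in MLL1-KO, led by MMP24. MMP24 reached 1 TPM in the SAP30-KO and SIN3A+SIN3B-DKO lines alone, so its lower level in MLL1-KO was partly set by the filter. Between SIN3A+SIN3B-DKO and SAP30-KO, 7 were called (7.47% of all genes), of which ADAMTS6 (1.40), MMP1, ADAMTS16, MMP24 and ADAMTS1 were higher and MMP16 and TIMP3 (-0.61) lower in SIN3A+SIN3B-DKO. The TIMP3 call was lost without SIN3A+SIN3B-DKO2 replicate 1 (-0.58). For MMP1 in the SIN3A+SIN3B-DKO and MLL1-KO lines and for ADAMTS1 in the MLL1-KO lines, the 2 lines behind a mean lay on opposite sides of Parental.

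The changes of the genes around the members were also taken. MMP1, MMP3, MMP7, MMP8, MMP10, MMP12 and MMP13 lie within chr11:102391239-102826461 (GRCh37), and the 51 tested genes centred on MMP1 had median log2 changes of -0.75 and -0.79 in the SAP30-KO lines, -0.32 and -0.25 in the SIN3A+SIN3B-DKO lines, and -0.91 and -0.36 in MLL1-KO1 and MLL1-KO2. In the same region MMP1 lay below Parental in both SAP30-KO lines, SIN3A+SIN3B-DKO2 and MLL1-KO1 and above it in SIN3A+SIN3B-DKO1 and MLL1-KO2. MMP3 was above Parental in all 6 lines, but had 1 Parental read and passed the filter through MLL1-KO2 alone. Its counting intervals reached below 1 in both SAP30-KO lines. Around TIMP3 and ADAMTS9 the medians stayed between -0.14 and 0.14, and around TIMP4 they lay between 0.23 and 0.34. The part of these regional differences in the changes of single members was not tested.

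**Figure D4:**
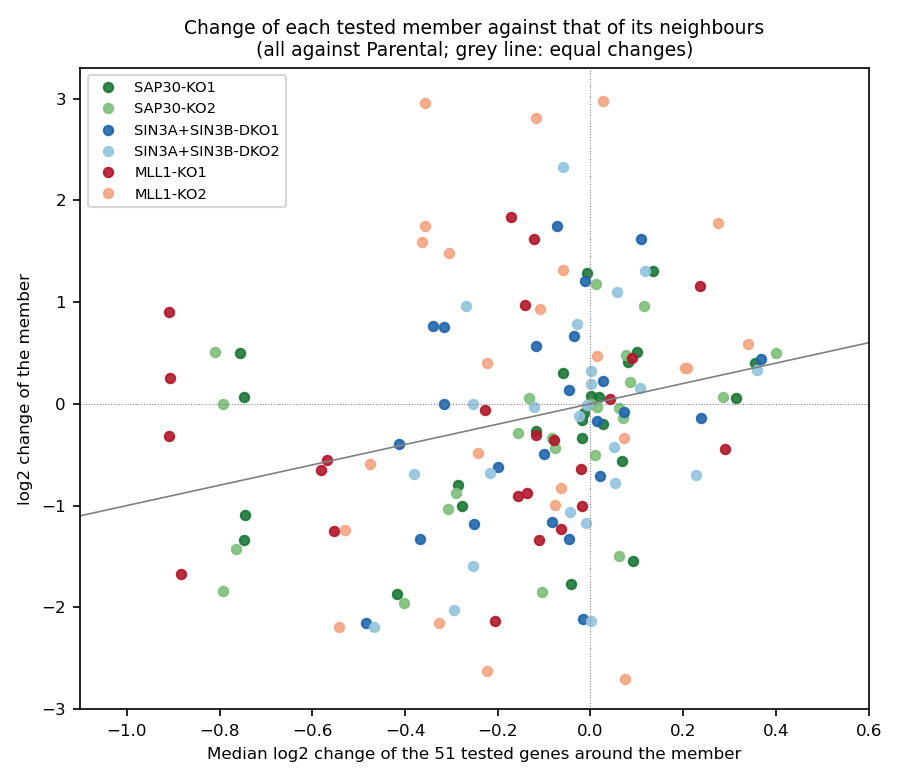
Log2 change of each of the 24 tested members (vertical axis) against the median log2 change of the 51 tested genes centred on it (horizontal axis), with 1 point for each member and line and a grey line where the 2 are equal. Points at the left edge, with medians near -0.75 or below, belong to the chromosome 11 members in the SAP30-KO lines and MLL1-KO1, and points lie on both sides of the grey line.

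Genes around these families were followed as lists, each read against the background shares given above. Of the activators of pro-enzymes and their receptor, 8 of 12 were in the table and 5 were tested. FURIN, the convertase that activates MMP14 and MMP11 (94.9 to 103.9 TPM in the MLL1-KO libraries against 35.6 and 35.8 in Parental), PLAU, urokinase, and its receptor PLAUR were called higher in both MLL1-KO lines, by log2 changes of 1.001 to 1.5. PLAT, tissue plasminogen activator, fell in both SAP30-KO and both MLL1-KO lines (-1.40 to -0.88). The median log2 change of the 5 was 1.001 and 1.32 in MLL1-KO1 and MLL1-KO2 and lay between -0.23 and 0.03 elsewhere.

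All 10 other inhibitors and inducers were in the table and 8 were tested. SERPINE2 (protease nexin), a serine protease inhibitor, was at 39.1 and 36.5 TPM in Parental and between 381 and 493 in the MLL1-KO libraries (log2 changes 3.34 and 3.68). THBS1, thrombospondin 1, was also called higher in both MLL1-KO lines (1.32 and 1.55), and RECK, a membrane-anchored MMP inhibitor, lower (-0.77 and -0.62). LRP1, the receptor that takes up MMPs and their complexes, was called higher in all 6 lines (0.59 to 2.38). TFPI2, a Kunitz-type protease inhibitor, was called lower in both SIN3A+SIN3B-DKO lines (-0.93 and -0.74). The list had medians of 0.26 and 0.84 in MLL1-KO1 and MLL1-KO2 and of -0.11 to 0.23 elsewhere.

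Of 12 ADAM proteases, cell-surface relatives that shed membrane proteins, 7 were tested. ADAM19 (2.21 and 1.92), ADAM8 (1.22 and 1.58) and ADAM12 (0.96 and 0.74) were called higher in both MLL1-KO lines. The sheddases ADAM9 (-0.92 and -1.12) and ADAM10 (-0.73 and -0.89) were called lower in both. ADAM12 reached 1 TPM only in a SIN3A+SIN3B-DKO2 library (1.11) and a MLL1-KO1 library (1.21), so its call depends in part on the filter. ADAM8 was also called higher in both SAP30-KO lines (0.71 and 0.81), and no ADAM gene was called in both SIN3A+SIN3B-DKO lines. Medians of this list lay between -0.25 and 0.11 in 5 lines and at 0.52 in MLL1-KO2. Of 7 ADAMTS-like proteins, which lack the protease domain, 4 were tested, and ADAMTSL4 was called lower in both SIN3A+SIN3B-DKO lines (-1.03 and -0.85) and both MLL1-KO lines (-2.27 and -1.81). The medians of these 4 lay between -0.05 and 0.32 in 5 lines and at 0.57 in MLL1-KO2.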

How the data were processed

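RNA of 14 libraries had been made with an mRNA kit and sequenced on an Illumina NextSeq 500, and the processing notes of the submitters name FastQC 0.11.2, TopHat, featureCounts and build hg19 (GRCh37). The authors deposited 1 value per gene and library, named RPKM, but each library sums to 1000000, so the values as deposited are TPM. The tests had been planned for RPKM and were kept. Whole reads were recovered for 18519 of 18519 genes above 0 (all values within 0.05 of a whole read). In R 4.3.3, limma 3.58.1 with a variance trend was fitted to log2(TPM + 0.5) of 13540 genes over all 7 groups (7 residual and 3.6 prior degrees of freedom), and checked on simulated data. Members and gene lists were chosen with earlier results of these data known, and some listed genes are not reported here one by one. Values are given per library for members called in both lines of a genotype, for the TIMPs and for MMP1, MMP2, MMP3, MMP9, MMP10, MMP13 and MMP14. Positions are from GENCODE 44 on GRCh37. TPM carry no information on total RNA. Same-numbered libraries did not deviate together (mean correlation 0.015, from -0.073 to 0.082 over 21 pairs of groups). The replicates of a group differed beyond counting noise (chi-square per degree of freedom 1.46 to 7.66). Alternatives tried were other pseudocounts, filters, scalings and fold minimums, fits on fewer libraries or with a replicate block, limma voom on recovered reads, and subtraction of the median of 51 neighbouring genes.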

Additional observations from a re-analysis of the deposited data

Results flagged for a closer look

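Each result here is a difference between lines or genotypes that passed the direct test (limma, adjusted p under 0.05, at least 1.5-fold), with changes from Parental that point in opposite directions on the 2 sides. Between MLL1-KO2 and MLL1-KO1 the log2 differences were 2.54 for ADAMTS1, 2.06 for MMP1, 1.62 for ADAMTS17 and 1.03 for TIMP4, with adjusted p of 7.87e-09, 2.75e-07, 4.23e-05 and 1.23e-05, and each gene was above Parental in MLL1-KO2 and below it in MLL1-KO1. Of these lines, ADAMTS1 was called against Parental in MLL1-KO1 alone, and MMP1, ADAMTS17 and TIMP4 in MLL1-KO2 alone. MMP1 differed by -2.34 between SIN3A+SIN3B-DKO2 and SIN3A+SIN3B-DKO1 (adjusted p = 7.36e-07), below Parental in the first and above it in the second.

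Between genotypes, the mean of the MLL1-KO lines differed from that of the SAP30-KO lines by 2.75 for ADAMTS7, 1.91 for ADAMTS6 and -2.17 for MMP24. Against the mean of the SIN3A+SIN3B-DKO lines it differed by 3.47 for ADAMTS7 and -2.97 for MMP24. ADAMTS6 differed by 1.40 between the SIN3A+SIN3B-DKO and SAP30-KO means, and neither ADAMTS6 nor ADAMTS7 was called against Parental in the SAP30-KO lines on their own. ADAMTS7 passed the filter on low values only through the MLL1-KO lines, where it was high, so its values are a description. MMP24 passed only through the SAP30-KO and SIN3A+SIN3B-DKO lines, where it was high, and ADAMTS17 only through SIN3A+SIN3B-DKO1 and MLL1-KO2. The directions of the MMP24 and ADAMTS17 differences were therefore partly set by the filter. No explanation of these differences was tested.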

How the results depend on the processing

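The counts given here are over all 24 tested members, with the 5 that passed the filter through 1 genotype included. Those 5 had to differ between groups. Shares over all genes tested were not computed for the alternatives. The counts therefore show how the settings act and give no result about the members. Over the 12 comparisons and their alternatives, 181 of 204 counts of called members stayed within 1.5 times the reported count. Without a fold minimum the count was 15 for SAP30-KO1 against Parental, 7 for SIN3A+SIN3B-DKO2 against SIN3A+SIN3B-DKO1, 19 for MLL1-KO against SAP30-KO, 21 for MLL1-KO against SIN3A+SIN3B-DKO and 18 for SIN3A+SIN3B-DKO against SAP30-KO. With a 2-fold minimum it was 9 for SIN3A+SIN3B-DKO1, SIN3A+SIN3B-DKO2 and MLL1-KO1 against Parental, 0 for SAP30-KO2 against SAP30-KO1, 1 for SIN3A+SIN3B-DKO2 against SIN3A+SIN3B-DKO1 and 2 for SIN3A+SIN3B-DKO against SAP30-KO. SAP30-KO2 against SAP30-KO1 also gave 0 with only the libraries compared, with limma voom on recovered reads and without any 1 of its libraries (0 to 0). SIN3A+SIN3B-DKO2 against SIN3A+SIN3B-DKO1 gave 1 with a pseudocount of 1, 1 with only the libraries compared, 5 with limma voom, and 1 to 3 with 1 library left out. A filter on the mean TPM over all libraries, added after seeing the data, gave 8 for MLL1-KO2 against MLL1-KO1 and 7 for MLL1-KO against SIN3A+SIN3B-DKO, since it tests fewer members.

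Of the 129 changes of members that were called, none changed direction in the alternatives tried. These include changes of the 5 members that passed the filter through 1 genotype, whose direction was partly set by the filter. A call was lost in 45 with a 2-fold minimum, 18 with a pseudocount of 1, 14 with the neighbouring genes subtracted, 9 under quantile normalization and 5 under median ratio scaling, and in 27 of 640 values with 1 library left out. The replicate numbers gave no pairing, and the replicate block changed no call (9, 9, 14, 15, 15 and 18 members for the 6 lines). Quantile normalization raised the median of all genes by 0.127 in MLL1-KO1 against Parental and by 0.104 in MLL1-KO against SAP30-KO. The cause of the lost calls was not tested. With 2 libraries a group and members of few reads, a difference that missed the threshold is not shown to be absent.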
